A study of Homo sapiens with 60 samples.

Results

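A set of 10 genes that restrain MAP kinase signalling or report its ERK branch was followed: the dual-specificity phosphatases DUSP1, DUSP4, DUSP5, DUSP6 and DUSP10, the Sprouty genes SPRY2 and SPRY4, the SPRED genes SPRED1 and SPRED2, and the transcription factor gene ETV5. They were chosen by name from the 60675 genes of the count table, and all 10 were matched to 1 identifier each and passed the filter on low counts. RNA came from SW1783 cells, an established astrocytoma line of human origin, which had been exposed to the vehicle or to an ethanol extract of herbs for 24 h. There were 3 vehicle libraries, labelled 0.1% DMSO in the sample labels and 2% in the text of the series. Each of 3 doses of 6 extracts also had 3 libraries, for which the sample labels give no DMSO percentage. Astragali Radix (astragalus root) was given at 220, 44 and 8.8 µg/mL. Cinnamomi Cortex (cinnamon bark) and 4 formulas, Samul-tang, Sagunja-tang, Sibjeondaebo-tang and Palmul-tang, were given at 500, 100 and 20 µg/mL, and all these doses are called high, medium and low here. The recipes nest: Palmul-tang combines those of Samul-tang and Sagunja-tang, and Sibjeondaebo-tang is Palmul-tang with cinnamon bark and astragalus root. A seventh extract, Rehmanniae Radix Preparata (prepared Rehmannia root), had 1 library per dose and was not tested.

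Growth factor receptors activate RAS, which starts the RAF, MEK and ERK kinase cascade, and active ERK switches on genes whose products slow the same cascade. Dual-specificity phosphatases remove the activating phosphates from MAP kinases, Sprouty proteins act between the receptor and RAF, and SPRED proteins hold RAS in check together with neurofibromin. Levels of several of these transcripts are used as a readout of ERK output, and stress signals through p38 and JNK also induce some of them.

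The sequences ahead of the transcription starts of these genes were searched for motifs of signal-driven factors. RefSeq start sites gave windows of 250 bases before the start for 7 of the 10 genes, with none at hand for DUSP4, DUSP5 and ETV5, which makes 11 windows on GRCh38.p14. Motifs were searched on both strands as the cAMP response element TGACGTCA, the AP-1 site TGANTCA, the ETS site CCGGAAG, the antioxidant response element TGACNNNGC and the CArG box. The windows of DUSP1 and SPRY2 are shown because both genes rose with the high dose of Astragali Radix and differ in these letters; capitals mark matches. The DUSP1 window lies at chr5:172771196-172771445 on the minus strand and the SPRY2 window at chr13:80341127-80341376 on the minus strand, each written 5′ to 3′ along its gene.
DUSP1: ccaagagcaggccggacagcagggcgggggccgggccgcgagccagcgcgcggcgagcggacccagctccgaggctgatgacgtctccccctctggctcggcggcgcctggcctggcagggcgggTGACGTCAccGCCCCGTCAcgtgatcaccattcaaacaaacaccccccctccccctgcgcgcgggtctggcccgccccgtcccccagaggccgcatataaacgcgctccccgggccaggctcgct
SPRY2: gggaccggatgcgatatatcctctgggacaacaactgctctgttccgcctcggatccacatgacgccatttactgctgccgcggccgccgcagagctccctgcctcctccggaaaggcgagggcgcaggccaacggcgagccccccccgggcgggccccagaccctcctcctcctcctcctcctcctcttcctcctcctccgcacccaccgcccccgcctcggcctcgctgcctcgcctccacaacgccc
DUSP1 holds 1 cAMP response element at 125 to 118 bases before its start and 1 antioxidant response element, on the other strand, at 115 to 107 bases before it, which do not overlap. The cAMP response element is present in 1.65% of 35116 such windows of all genes and the antioxidant response element in 10.9%. SPRY4 holds 1 match to the antioxidant response element in a window that overlaps annotated exons and is not shown, and the SPRY2 window shown holds none of the 5 motifs. No window of these genes holds the AP-1 site (6.57% of all windows), the ETS site (8.52%) or the CArG box (1.16%). These matches describe letters only, and binding was not measured.

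Library totals ran from 19793383 to 37152367 expected counts, and those of the vehicle from 24212198 to 26167505. Levels are given as CPM, counts scaled by normalised library totals, and changes as log2 ratios ± SE with n = 3 libraries per group. A gene is said to rise, fall or be called where edgeR's adjusted p is below 0.05 over the 17676 genes tested. Whether replicates were separate cultures is not stated, so a p measures the spread between these libraries only. Where groups are said not to overlap, the libraries are those of the test. The share of all genes without overlap was not counted. Vehicle and extract libraries carry different label codes of unstated meaning, so extract and code cannot be told apart in any comparison with the vehicle. The same holds for a difference in DMSO, which the sample labels give for the vehicle only. Dose trends and comparisons between doses use no vehicle library. Astragali Radix low replicates 1 and 2 stood apart: over genes, the SD of their log2 deviation from the mean level of the other groups was 0.638 and 0.867, against 0.284 in replicate 3. Transcript length and GC content accounted for 6.35% and 35.7% of that variance, against 0.605%. All comparisons share 1 estimate of spread, so counts are also given without these 2 libraries. Of 9 markers of astrocytes and glioma, VIM (3554 to 8133 CPM) and CD44 (1931 to 3072 CPM) were abundant, and SOX9 (56.8 to 85.4 CPM), SLC1A3 (13.02 to 26.5 CPM) and NES (2.16 to 16.5 CPM) were detected. The other 4, GFAP, S100B, AQP4 and ALDH1L1, stayed at or below 0.264, 0.32, 0.131 and 0.192 CPM in every library. The epithelial markers EPCAM and CDH1 measured at most 0.2 and 0.192 CPM. Of the endothelial markers CDH5 measured at most 0.098 CPM and VWF at most 0.432 CPM, while PECAM1 measured 0.402 to 1.605 CPM. The leukocyte markers CD68 (91.8 to 265 CPM) and PTPRC (3.81 to 12.7 CPM) were detected. Of the neuron markers SYT1 measured 19.1 to 48.2 CPM and RBFOX3 at most 0.721 CPM, and of the oligodendrocyte markers MBP measured 3.87 to 8.43 CPM and MOG at most 0.048 CPM; their part in the results was not tested. In bulk RNA, fewer cells of a type and less RNA per cell cannot be told apart.

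Per kilobase of merged exons, ETV5 was the most abundant of the 10 transcripts in vehicle cells, at 22.1 ± 0.546 CPM per kb (SD, n = 3). DUSP4 (15.4 ± 0.405) and DUSP1 (14.7 ± 0.846 CPM per kb) followed, with ranges that overlapped. SPRY2 (7.985 ± 0.62), SPRED2 (7.91 ± 0.468) and SPRED1 (7.57 ± 0.168 CPM per kb) also overlapped each other. DUSP6 (6.47 ± 0.366), DUSP5 (6.15 ± 0.199) and SPRY4 (5.87 ± 0.0963 CPM per kb) came next, and neighbours in that order overlapped. DUSP10 was the least abundant, at 4.57 ± 0.088 CPM per kb, below the range of every other member.

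**Figure D1:**
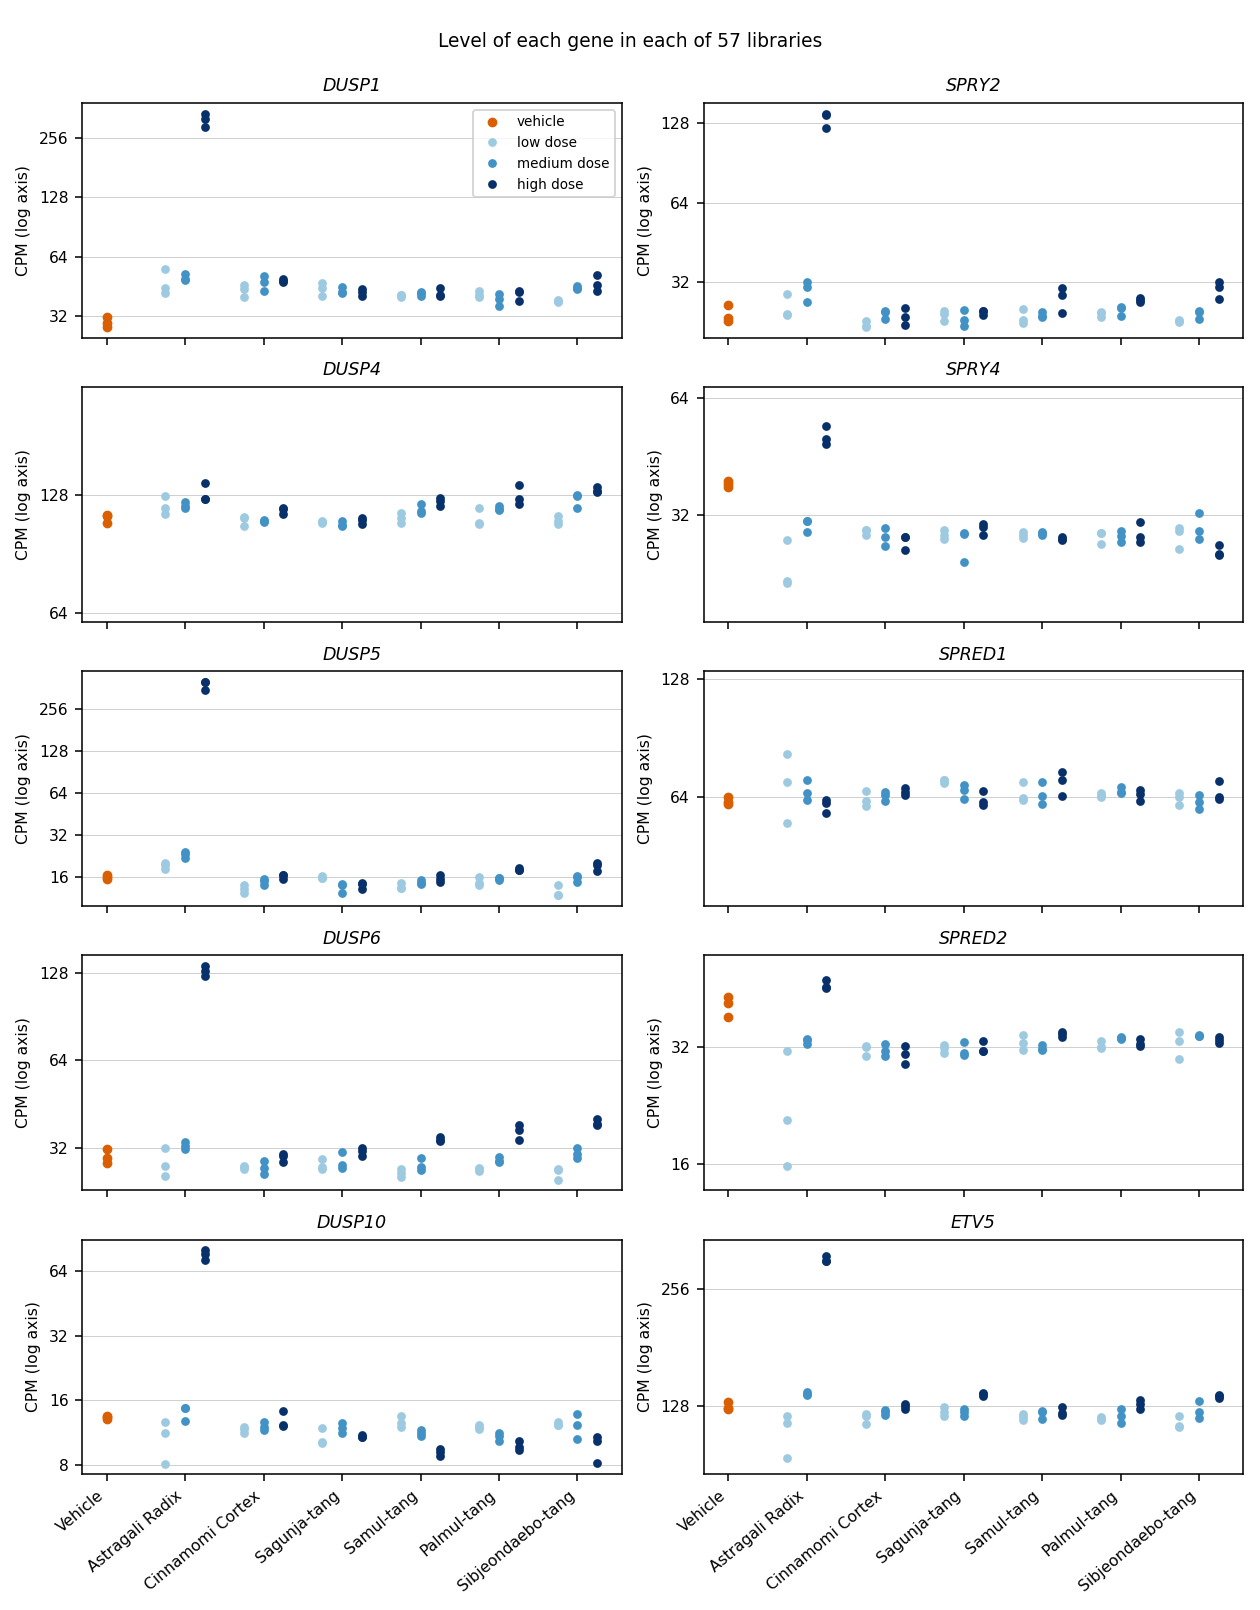
Level of each of the 10 genes in CPM on a log axis in each of 57 libraries (points), by extract; orange marks the vehicle and light to dark blue the low, medium and high dose. The Astragali Radix high libraries lie far above all others for DUSP1, DUSP5, DUSP6, DUSP10, SPRY2 and ETV5, and the vehicle lies above nearly all extract libraries for SPRY4 and SPRED2.

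The high dose of Astragali Radix raised the MAP kinase phosphatases, Sprouty genes and ETV5 together. Of the 10 members 8 rose and none fell against the vehicle, in a comparison in which 68.2% of all genes tested were called. The median log2 change was 1.68 over the members and -0.06 over all genes. Neither SPRED gene passed the test.

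DUSP5, a nuclear phosphatase that acts on ERK, rose the most. Its level was 16.1, 15.6 and 16.6 CPM in the 3 vehicle libraries and 399.6, 400.2 and 350.2 CPM in the 3 Astragali Radix high libraries, which is 23.8-fold (log2 4.58 ± 0.07, edgeR adjusted p = 8.16e-42). DUSP1, an immediate early phosphatase that acts on p38, JNK and ERK, stood at 28.0, 31.4 and 29.4 CPM in the vehicle and 341, 321 and 292 CPM at the high dose. This was a 10.7-fold rise (log2 3.42 ± 0.08), and for both genes every treated library exceeded every vehicle library several times over.

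DUSP10, which prefers p38 and JNK to ERK, stood at 13.6, 13.3 and 13.1 CPM in the vehicle and 80.03, 76.8 and 71.8 CPM at the high dose, a 5.72-fold rise (log2 2.52 ± 0.09). DUSP6, the cytoplasmic ERK phosphatase often read as a measure of ERK output, went from 31.8, 29.6 and 28.5 CPM to 124, 135 and 129 CPM, a 4.32-fold rise (log2 2.11 ± 0.06). DUSP4, a nuclear phosphatase of ERK and JNK, was already abundant and moved little. It measured 113, 114 and 109 CPM in the vehicle and 137.5, 125 and 125.5 CPM at the high dose, without overlap (log2 0.21 ± 0.05, edgeR adjusted p = 9.02e-05).

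SPRY2 and SPRY4, both inhibitors of receptor tyrosine kinase signalling, parted in size. SPRY2 went from 22.9, 26.4 and 23.5 CPM to 139, 137 and 122 CPM, a 5.47-fold rise (log2 2.45 ± 0.07). SPRY4 went from 39.2, 37.9 and 38.5 CPM to 54.3, 50.2 and 48.8 CPM, a 1.33-fold rise (log2 0.41 ± 0.07).

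SPRED1 measured 64.1, 62.0 and 61.5 CPM in the vehicle and 58.3, 61.6 and 63.0 CPM at the high dose, with overlapping groups (log2 -0.04 ± 0.07, edgeR adjusted p = 0.675). SPRED2 measured 42.9, 38.1 and 41.2 CPM in the vehicle and 45.2, 47.4 and 45.5 CPM at the high dose. The SPRED2 groups did not overlap, yet the change of 0.18 ± 0.09 did not pass the test (edgeR adjusted p = 0.0931), and it did without the 2 low-dose libraries (adjusted p = 0.000495). ETV5, an ETS-family transcription factor induced by ERK signalling, measured 126, 126 and 132 CPM in the vehicle and 302, 301 and 311 CPM at the high dose, a 2.38-fold rise (log2 1.252 ± 0.05).

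**Figure D2:**
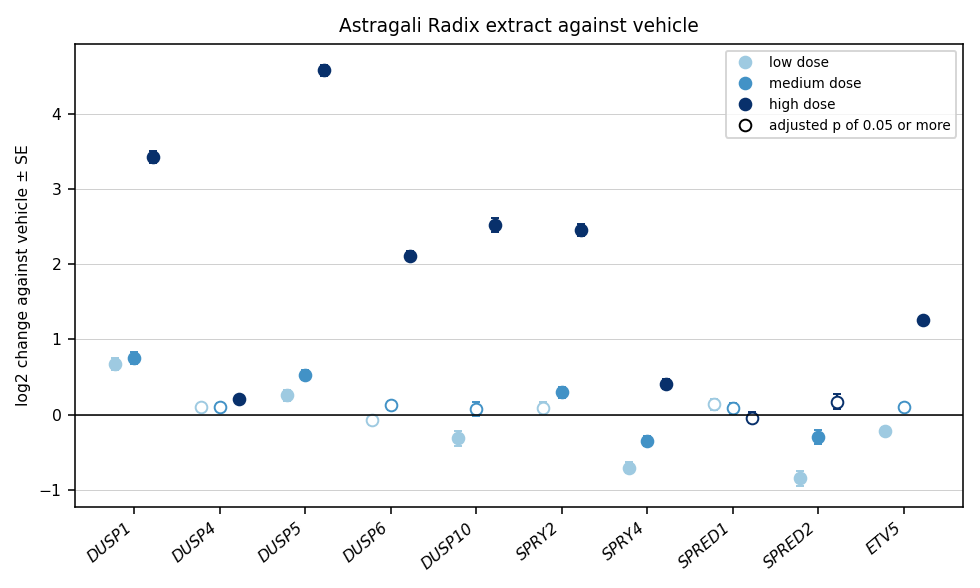
log2 change ± SE of each gene against the vehicle at the low, medium and high dose of Astragali Radix; open points did not pass the test. DUSP5 reaches 4.58 and DUSP1 3.42 at the high dose, while at the lower doses all changes lie within 1 unit of 0.

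At the medium dose the same extract gave small changes. Those of DUSP1, SPRY4 and SPRED2 had the directions that the other extracts also showed against the vehicle, as given below. Of the members 3 rose and 2 fell against the vehicle, 5 in all, with 16.6% of genes called, and 8 were called without the 2 low-dose libraries. DUSP5 measured 23.4, 24.2 and 22.1 CPM (log2 0.53 ± 0.07), DUSP1 48.6, 52.1 and 49.4 CPM (0.76 ± 0.08) and SPRY2 26.9, 32.1 and 30.7 CPM (0.30 ± 0.07). SPRY4 fell by 0.34 ± 0.07 and SPRED2 by 0.30 ± 0.09. The SPRED2 call was lost without any 1 of Vehicle replicate 1, Vehicle replicate 3 or the medium libraries (adjusted p up to 0.11). Between the medium and the high dose 9 members rose and none fell, with 66.4% of genes called. The steps were 4.05 ± 0.07 for DUSP5, 2.67 ± 0.08 for DUSP1, 2.44 ± 0.09 for DUSP10, 2.15 ± 0.07 for SPRY2 and 1.99 ± 0.06 for DUSP6. The rise of DUSP4 over this step, 0.10 ± 0.05, was lost when any 1 of the 6 libraries was left out (edgeR adjusted p up to 0.51) and with the replicate block (adjusted p = 0.0511), which leaves 8 members. SPRED1 had a difference of -0.12 ± 0.07 over it and was called without the 2 low-dose libraries (adjusted p = 0.0133).

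At the low dose 6 members were called (2 higher, 4 lower), with 40.7% of genes called, but this count rests on the libraries that stood apart. With replicate 3 as the one low-dose library, 3 were called: DUSP1 was higher by 0.59 (adjusted p = 1.17e-05), SPRY4 lower at -0.46 and SPRED2 lower at -0.38. In a fit of the low-dose and vehicle libraries by themselves 0 were called. SPRED2 shows the spread, with 20.7, 15.8 and 31.1 CPM in replicates 1, 2 and 3. All 10 members were called in the dose trend of Astragali Radix, 9 of them rising, with 70.0% of genes called. The trend is the log2 difference between the high and the low dose, averaged over the 5-fold steps between them. The steepest were DUSP5 (2.16 ± 0.03 per step), DUSP10 (1.415 ± 0.05), DUSP1 (1.38 ± 0.04), SPRY2 (1.18 ± 0.04) and DUSP6 (1.09 ± 0.03). These averages do not describe equal steps, because the medium dose does not enter them. From low to medium to high dose, DUSP5 had means of 19.24, 23.23 and 383.3 CPM and DUSP1 of 47.14, 50.04 and 318 CPM. Most of the rise of both genes lay between the medium and the high dose. ETV5 rose by 0.73 ± 0.03, SPRY4 by 0.56 ± 0.03 and SPRED2 by 0.51 ± 0.05 per step, and the last was 0.27 without the 2 libraries. DUSP4 (0.05 ± 0.02) and SPRED1 (-0.09 ± 0.04) were called, but each lost the call without any of 3 single libraries, Astragali Radix high replicate 1 and low replicate 3 for both, low replicate 1 for DUSP4 and low replicate 2 for SPRED1 (edgeR adjusted p up to 0.352 and 0.578).

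The other 5 extracts shared 3 differences from the vehicle: DUSP1 was higher, and SPRY4 and SPRED2 were lower. All 18 comparisons with the vehicle share the same 3 vehicle libraries and the limits of label code and DMSO named above. DUSP1 was called higher in 15 of 15 groups of these extracts, by 0.36 to 0.70, and all 45 of their libraries (35.7, 42.4 and 51.8 CPM as lowest, median and highest) lay above the vehicle maximum of 31.4 CPM. SPRY4 was called lower in 15 of 15 groups, by -0.57 to -0.37, and all 45 libraries (24.3, 28.5 and 32.4 CPM) lay below the vehicle minimum of 37.9 CPM. SPRED2 was called lower in 13 of 15 groups, by -0.42 to -0.25 over all 15, and its 45 libraries (28.9, 32.3 and 35.0 CPM) lay below the vehicle minimum of 38.1 CPM. SPRED1 was called in none of the 15 groups, and ETV5 in none. How many of all genes were called in every group, or lay outside the vehicle range in all 45 libraries, was not counted. The medium and low doses of Astragali Radix had the same 3 calls. Over all 18 groups DUSP1 was called higher in 18, SPRY4 lower in 17 and SPRED2 lower in 15. Of the dose trends of DUSP1, SPRY4 and SPRED2 in the 5 extracts, 1 was called, that of DUSP1 in Sibjeondaebo-tang.

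The counts of members called at the high dose of these extracts stood as follows. Cinnamomi Cortex had 3 (1 higher, 2 lower) with 16.3% of genes called, and Sagunja-tang 5 (1 higher, 4 lower) with 22.7%. Samul-tang had 6 (4 higher, 2 lower) with 19.7%, and Palmul-tang 6 (3 higher, 3 lower) with 20.3%. Sibjeondaebo-tang had 8 (5 higher, 3 lower) with 23.1%, the largest of these counts. Without the 2 Astragali Radix low libraries the counts were 3, 6, 8, 8 and 9.

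At the medium dose, Cinnamomi Cortex had 3 members called (1 higher, 2 lower) with 13.0% of genes called, Sagunja-tang 4 (1 higher, 3 lower) with 13.5%, and Samul-tang 3 (1 higher, 2 lower) with 12.1%. Palmul-tang had 4 (1 higher, 3 lower) with 10.2%, and Sibjeondaebo-tang 3 (2 higher, 1 lower) with 5.76%. At the low dose, Cinnamomi Cortex had 4 (1 higher, 3 lower) with 13.2%, Sagunja-tang 4 (1 higher, 3 lower) with 14.1%, and Samul-tang 5 (1 higher, 4 lower) with 11.3%. Palmul-tang had 3 (1 higher, 2 lower) with 9.84%, 5 without the 2 Astragali Radix low libraries, and Sibjeondaebo-tang 5 (1 higher, 4 lower) with 9.61%. In each of these groups DUSP1 was among the members called higher and SPRY4 among those called lower.

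Several of the smaller calls against the vehicle depended on 1 library. The SPRED2 call was lost without Vehicle replicate 1 or 3 or replicate 1 or 2 of the treated group in the low dose of Samul-tang and Palmul-tang (edgeR adjusted p up to 0.128 and 0.0928), and without Vehicle replicate 1 or 3 or replicate 1 or 3 of the treated group in the low and high dose of Sibjeondaebo-tang (up to 0.146 and 0.107). It was also lost without Vehicle replicate 1 or Palmul-tang high replicate 2 in the high dose of Palmul-tang (up to 0.0776), without Vehicle replicate 1 in the medium dose of Samul-tang (0.063) and without any 1 of the 6 libraries in the medium dose of Palmul-tang (up to 0.215).

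In the high dose of Samul-tang the calls of DUSP4 (0.14 ± 0.05) and DUSP6 (0.19 ± 0.06) were lost without Vehicle replicate 3 or Samul-tang high replicate 2 (edgeR adjusted p up to 0.104 and 0.0898). SPRY2 there (0.20 ± 0.07) overlapped the vehicle and lost its call without Vehicle replicate 1 or 3 or Samul-tang high replicate 2 or 3 (up to 0.253). In the high dose of Sagunja-tang the falls of DUSP5 (-0.20 ± 0.07) and DUSP10 (-0.29 ± 0.10) were lost without Vehicle replicate 1 or Sagunja-tang high replicate 2 or 3, that of DUSP5 also without Vehicle replicate 3 and that of DUSP10 without Vehicle replicate 2 or Sagunja-tang high replicate 1 (up to 0.16 and 0.0777). The rise of DUSP4 in the medium dose of Sibjeondaebo-tang (0.16 ± 0.05) was lost without replicate 1 or 3 of either group (up to 0.133).

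The falls of DUSP5 and DUSP6 in the low dose of Samul-tang (-0.24 ± 0.07 and -0.19 ± 0.06) each lost their call without 4 of the 6 libraries, Vehicle replicate 1 and Samul-tang low replicate 2 for both, Vehicle replicate 3 and low replicate 3 for DUSP5, and Vehicle replicate 2 and low replicate 1 for DUSP6 (edgeR adjusted p up to 0.106 and 0.218). That of DUSP6 in the low dose of Sibjeondaebo-tang (-0.19 ± 0.06) remained only without Vehicle replicate 3 (otherwise up to 0.217), and that of DUSP10 in the low dose of Sagunja-tang (-0.31 ± 0.10) only without Sagunja-tang low replicate 1 (otherwise up to 0.122). DUSP10 in the medium dose of Palmul-tang (-0.30 ± 0.10) was lost without any 1 of the 6 libraries (up to 0.17), and DUSP5 in the medium dose of Sagunja-tang (-0.24 ± 0.07) without Vehicle replicate 3 or Sagunja-tang medium replicate 2 (up to 0.163).

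Within an extract, where the vehicle does not enter, DUSP6 rose with dose in Samul-tang, Palmul-tang and Sibjeondaebo-tang. DUSP5 rose in Palmul-tang, Sibjeondaebo-tang and Cinnamomi Cortex, and DUSP10 fell in Samul-tang and Sibjeondaebo-tang. Among the 5 extracts other than Astragali Radix, Sibjeondaebo-tang had the most members called in its dose trend: DUSP1, DUSP4, DUSP5, DUSP6, SPRY2 and ETV5 rose and DUSP10 fell, 7 of 10, with 21.3% of genes called. The median trend was 0.12 per 5-fold step over the members and -0.00415 over all genes. Sibjeondaebo-tang high libraries also had a weak negative rank correlation over genes of their deviations with transcript length (-0.114, -0.0918 and -0.146) and the low libraries a positive one (0.0991, 0.0693 and 0.117). With length and GC content fitted per library 7 members were again called.

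DUSP6 measured 27.0, 26.8 and 24.9 CPM at the low, 31.9, 30.5 and 29.5 CPM at the medium and 38.5, 38.5 and 40.1 CPM at the high dose of Sibjeondaebo-tang. The 3 doses did not overlap, and the trend was 0.29 ± 0.03 per step (edgeR adjusted p = 4.98e-10). DUSP5 measured 14.1, 11.8 and 12.0 CPM at the low, 15.9, 16.3 and 14.9 CPM at the medium and 17.8, 19.4 and 20.1 CPM at the high dose (0.30 ± 0.03 per step, adjusted p = 1.09e-08). Here too each dose lay above the one before it. DUSP5 was below the vehicle range at the low dose and above it at the high dose.

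SPRY2 measured 23.2, 22.7 and 22.9 CPM at the low and 27.7, 30.7 and 32.0 CPM at the high dose (0.20 ± 0.04 per step). DUSP4 rose from 110, 108 and 113 CPM to 134.5, 131.5 and 130 CPM (0.13 ± 0.02), and ETV5 from 121, 113.5 and 114 CPM to 137, 136 and 134 CPM (0.11 ± 0.03). None of these 3 pairs of groups overlapped, which was not counted over all genes. DUSP10 went the other way, from 12.7, 12.3 and 12.2 CPM to 10.4, 10.8 and 8.17 CPM (-0.17 ± 0.05). The calls of DUSP10 and of DUSP1 (0.15 ± 0.04) were lost without Sibjeondaebo-tang high replicate 3 (edgeR adjusted p = 0.156 and 0.0621).

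In Palmul-tang DUSP4, DUSP5 and DUSP6 rose with dose, 3 members, with 3.68% of genes called, and 5 were called without the 2 Astragali Radix low libraries. DUSP6 measured 27.1, 26.7 and 27.2 CPM at the low and 34.0, 36.9 and 38.4 CPM at the high dose (0.22 ± 0.03 per step). DUSP5 measured 14.2, 15.97 and 14.5 CPM and then 18.1, 18.7 and 17.96 CPM (0.15 ± 0.03). The groups did not overlap for either gene. The DUSP5 call was lost without Palmul-tang low replicate 1 (edgeR adjusted p = 0.0511), and that of DUSP4 (0.09 ± 0.02) without low replicate 1, low replicate 3 or high replicate 3 (up to 0.14).

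In Samul-tang DUSP6 rose and DUSP10 fell with dose, 2 members, with 1.41% of genes called, and 4 were called without the 2 libraries. DUSP6 measured 26.2, 25.4 and 27.2 CPM at the low and 34.0, 35.0 and 33.7 CPM at the high dose (0.19 ± 0.03 per step, edgeR adjusted p = 2.96e-05). DUSP10 measured 13.6, 12.0 and 12.6 CPM and then 8.84, 9.21 and 9.47 CPM (-0.23 ± 0.05, adjusted p = 0.00288). Neither pair of groups overlapped. In Cinnamomi Cortex DUSP5 was the 1 member called, from 13.2, 12.3 and 14.0 CPM to 16.6, 16.5 and 15.5 CPM (0.15 ± 0.03 per step), with 0.441% of genes called. That call was lost without replicate 1 or replicate 2 of either dose (edgeR adjusted p up to 0.261).

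In Sagunja-tang 0 members were called, with 3.78% of genes called by edgeR. Its DUSP6 measured 27.0, 27.5 and 29.2 CPM at the low and 30.0, 31.3 and 32.0 CPM at the high dose (0.08 ± 0.03 per step, adjusted p = 0.161), and DUSP5 had a trend of -0.09 ± 0.03 per step. Without the 2 Astragali Radix low libraries 3 were called in Sagunja-tang: DUSP6 and ETV5 rose and SPRED1 fell (adjusted p = 0.0212, 0.000925 and 0.0208). DESeq2 called 1.

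**Figure D3:**
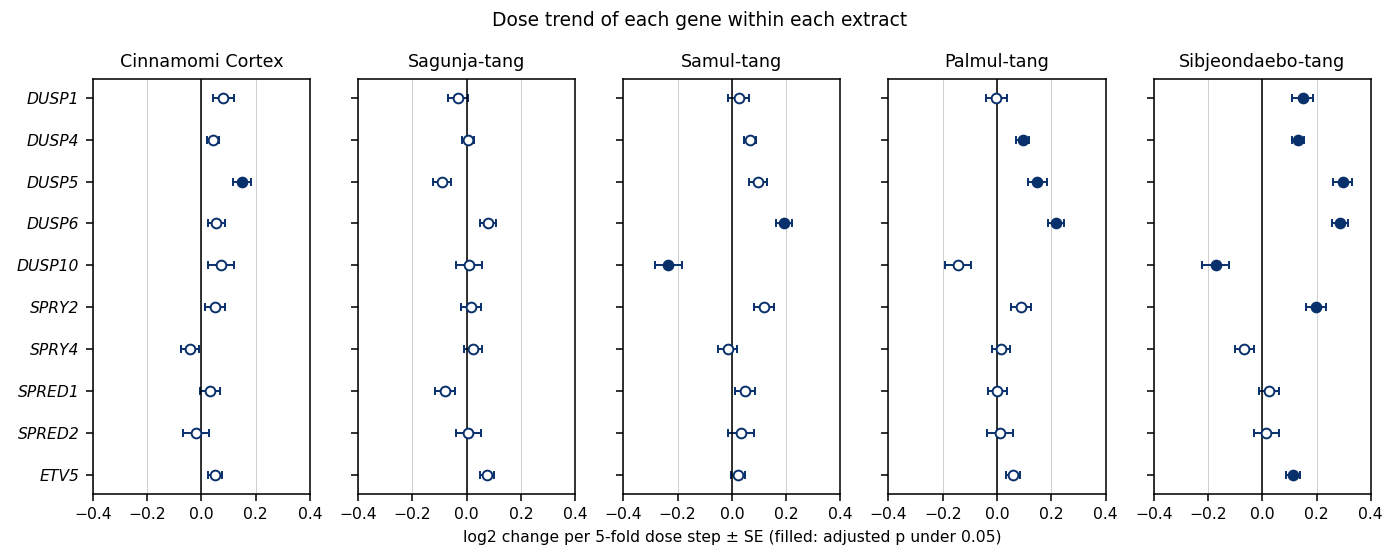
Mean log2 change per 5-fold dose step ± SE of each gene in the 5 extracts given at 20, 100 and 500 µg/mL. Filled points passed the test. Sibjeondaebo-tang has 7 filled points, of which DUSP10 lies below 0, and Sagunja-tang has none.

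A test of whether the dose trend differed among these 5 extracts called 3 members, DUSP5, DUSP6 and DUSP10. In that fit of all 57 libraries 5.84% of genes were called. Without the 2 Astragali Radix low libraries 8 were called, all but SPRY4 and SPRED2. DUSP5 ranged from -0.09 per step in Sagunja-tang to 0.30 in Sibjeondaebo-tang, DUSP6 from 0.06 in Cinnamomi Cortex to 0.29 in Sibjeondaebo-tang, and DUSP10 from -0.23 in Samul-tang to 0.07 in Cinnamomi Cortex. Astragali Radix, given at other doses, was left out of this test. Its DUSP10 trend, 1.415 ± 0.05 per step over 8.8 to 220 µg/mL, was upward, unlike those of Samul-tang and Sibjeondaebo-tang over 20 to 500 µg/mL.

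**Figure D4:**
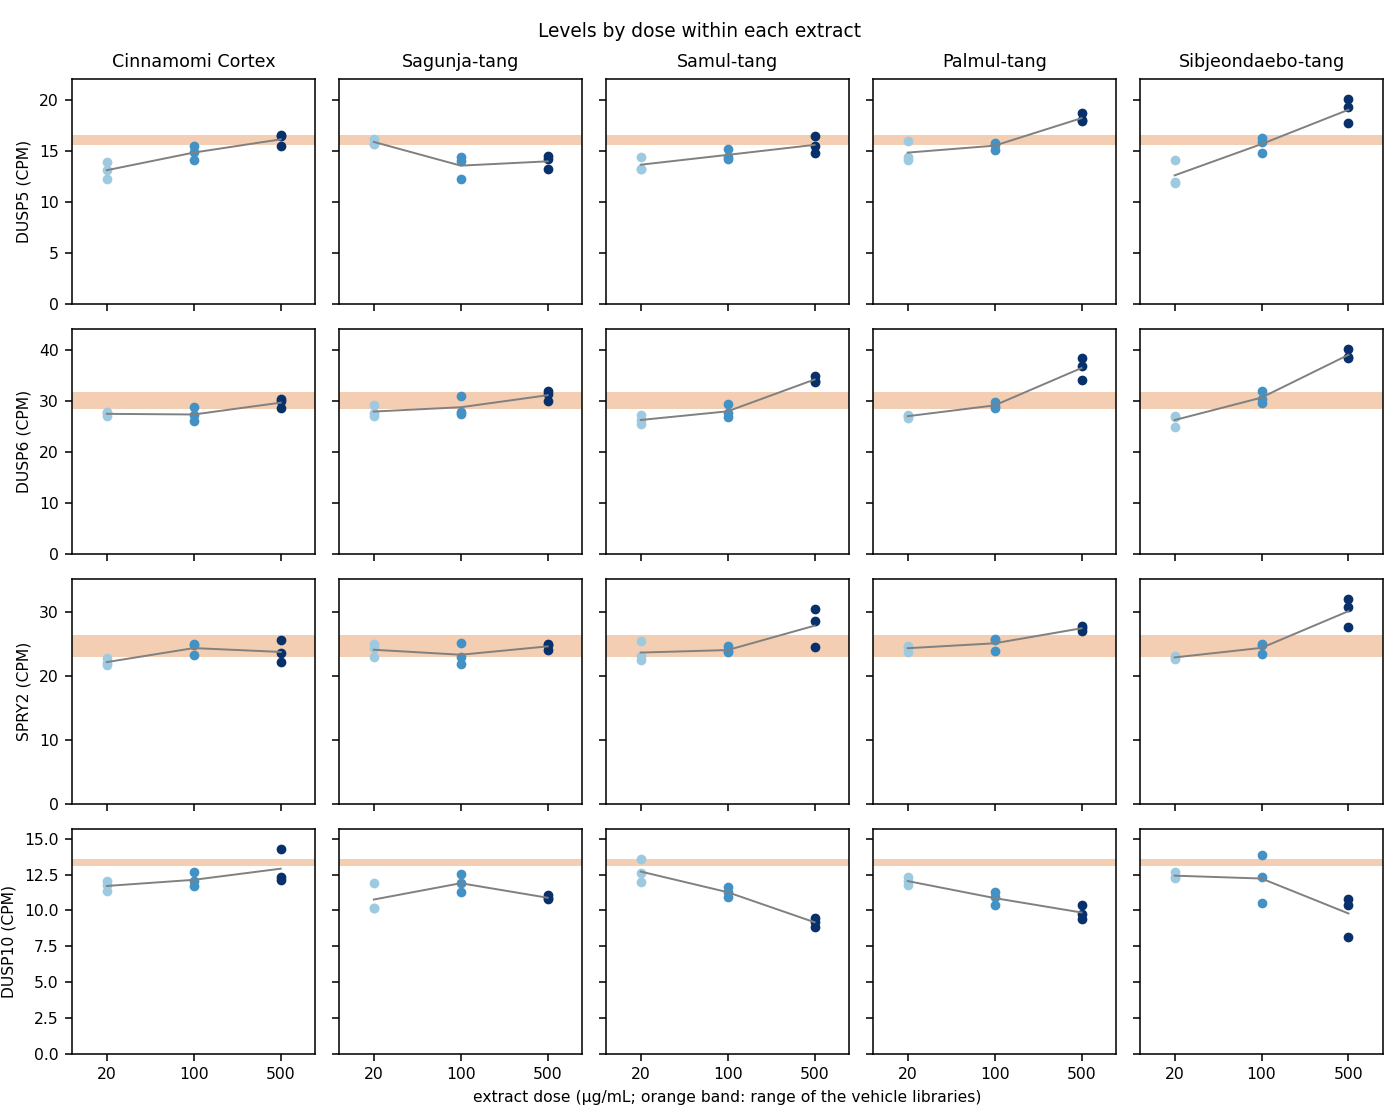
CPM of DUSP5, DUSP6, SPRY2 and DUSP10 in each library (points) by dose in µg/mL for 5 extracts, with lines through the group means and an orange band over the range of the vehicle libraries. DUSP6 climbs to 38.5 CPM and above at the high dose of Sibjeondaebo-tang, where DUSP10 falls to between 8.17 and 10.8 CPM.

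Sagunja-tang and Samul-tang libraries share one label code and Palmul-tang and Sibjeondaebo-tang libraries another, so formula and code cannot be told apart where Palmul-tang is compared with Sagunja-tang or Samul-tang. Between formulas at the high dose, DUSP4, DUSP5 and DUSP6 were higher with Palmul-tang than with Sagunja-tang, 3 members, with 0.916% of genes called. DUSP5 measured 14.6, 13.2 and 14.2 CPM with Sagunja-tang and 18.1, 18.7 and 17.96 CPM with Palmul-tang, without overlap (0.38 ± 0.07, edgeR adjusted p = 0.000448). The differences of DUSP4 (0.21 ± 0.05) and DUSP6 (0.23 ± 0.06) were lost without Sagunja-tang high replicate 1 or Palmul-tang high replicate 3, and that of DUSP6 also without Sagunja-tang high replicate 2 or 3 or Palmul-tang high replicate 2 (up to 0.171 and 0.321).

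Against the same Sagunja-tang libraries, Samul-tang had 1 member called, DUSP4 (0.16 ± 0.04), with 4.70% of genes called; without the 2 Astragali Radix low libraries 6 were called. The DUSP4 call was lost without any 1 of the 3 Sagunja-tang libraries or Samul-tang high replicate 2 or 3 (edgeR adjusted p up to 0.126), and with length and GC content fitted (adjusted p = 0.156). Palmul-tang and Samul-tang differed in 0 members, with 1.69% of genes called, and DUSP5 was the 1 called without the 2 libraries (0.23, adjusted p = 0.0181). Sibjeondaebo-tang and Palmul-tang differed in 0 members, with 5.45% of genes called by edgeR. Without the 2 libraries DUSP1 was higher (0.19, adjusted p = 0.0265) and SPRY4 lower (-0.15, adjusted p = 0.0381) with Sibjeondaebo-tang.

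Other genes of the pathway were read from lists of symbols. At the high dose of Astragali Radix, where 68.2% of all genes were called against the vehicle (5763 higher and 6289 lower), the other MAP kinase phosphatases rose in 5 of 6 genes tested and fell in 1, with a median of 1.45. DUSP3, a small phosphatase of ERK and JNK, went from 128 to 423 CPM (log2 1.73 ± 0.05), DUSP8 from 3.88 to 13.8 CPM (1.825 ± 0.15) and DUSP16 from 14.3 to 32.1 CPM (1.17 ± 0.11). The 1 that fell was DUSP7, from 64.5 to 47.2 CPM (-0.45 ± 0.06). Of 16 other ERK output and feedback genes, 9 rose and 5 fell, with a median of 0.32. ERRFI1, an inhibitor of the EGF receptor, rose by 2.59 ± 0.11, TRIB1, a pseudokinase, by 2.24 ± 0.06, and PHLDA1 by 1.93 ± 0.05. The 5 that fell were EPHA2 (-1.47 ± 0.08), CCND1 (-1.32 ± 0.06), ETV1 (-1.04 ± 0.11), LIF (-1.02 ± 0.07) and EPHA4 (-0.34 ± 0.11).

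Growth factor ligands rose in 8 and fell in 4 of 14, with a median of 0.40. HBEGF, a ligand of the EGF receptor, rose from 44.2 to 176 CPM (1.995 ± 0.07) and NRG1, a ligand of ERBB receptors, from 19.9 to 32.4 CPM (0.71 ± 0.08), while FGF5 fell from 41.5 to 14.1 CPM (-1.565 ± 0.12). Receptor tyrosine kinases fell in 6 and rose in 1 of 11, with a median of -0.28. ERBB2 fell from 108 to 39.1 CPM (-1.46 ± 0.10) and PDGFRA from 22.8 to 8.86 CPM (-1.36 ± 0.09), and FGFR1 rose from 231 to 354.5 CPM (0.62 ± 0.06).

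Adaptors and the RAS and ERK cascade rose in 10 and fell in 5 of 18, with a median of 0.25. MAP2K1, which encodes the kinase of ERK, rose from 69.2 to 188 CPM (1.44 ± 0.04) and SOS2, an activator of RAS, by 0.98 ± 0.07, while the RAF kinase gene ARAF fell by 0.54 ± 0.05. The JNK and p38 cascade rose in 5 and fell in 3 of 11, with a median of 0.22. MAPKAPK2, a kinase downstream of p38, rose by 0.97 ± 0.08, MAP2K3 by 0.73 ± 0.07 and MAP2K4 by 0.59 ± 0.06. The 3 that fell were MAP3K1 (-0.49 ± 0.10), MAP3K5 (-0.47 ± 0.09) and MAPK9 (-0.36 ± 0.06). The median over all genes in this comparison was -0.06. The called shares of the receptor tyrosine kinases (7 of 11) and of the JNK and p38 cascade (8 of 11) were near that over all genes.

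In the dose trend of Sibjeondaebo-tang, 8 of the 16 other ERK output and feedback genes were called, 5 rising and 3 falling, with 21.3% of all genes called (3763 of 17676). PHLDA1 rose by 0.21 ± 0.03 and LIF, a cytokine, by 0.26 ± 0.04 per step. The 3 that fell were EPHA4 (-0.26 ± 0.05), EPHA2 (-0.17 ± 0.04) and ETV1 (-0.14 ± 0.05). All 5 receptor tyrosine kinases called of 11 tested fell, among them KIT (59.6 to 32.6 CPM from low to high, -0.43 ± 0.04 per step) and FGFR3 (2.99 to 1.40 CPM, -0.55 ± 0.08). Of 14 ligands 1 rose, EREG (0.48 ± 0.09), and 3 fell, NRG1 among them (-0.13 ± 0.04). Of 6 other MAP kinase phosphatases DUSP3 rose (0.12 ± 0.02) and DUSP2 fell (-0.89 ± 0.18), the latter from 0.668 to 0.183 CPM, a low level. Of 18 genes of the RAS and ERK cascade 2 rose and 1 fell: MAP2K1 rose by 0.16 ± 0.02 per step and RASA1, a brake on RAS, fell by 0.12 ± 0.03. Of 11 genes of the JNK and p38 cascade 2 rose, MAP2K3 (0.14 ± 0.03) and MAPKAPK3 (0.10 ± 0.03), and 1 fell, MAP3K1 (-0.14 ± 0.05). The called shares of the ligands (4 of 14), the other phosphatases (2 of 6) and both cascades (3 of 18 and 3 of 11) stood near that over all genes.

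Over the 19 groups, the range between the highest and the lowest group mean was 4.92 on the log2 scale for DUSP5, 3.42 for DUSP1, 3.04 for DUSP10 and 0.208 for SPRED1, the least variable member. Outside Astragali Radix the ranges over 16 groups were 0.182 for SPRED1 to 0.704 for DUSP1, against a pooled SD within groups of 0.0908 and 0.0933. Group means, which share 1 scaling and the vehicle, were most alike over the 16 groups for DUSP6 and SPRY2 (Pearson r = 0.903) and for DUSP4 and DUSP6 (r = 0.833), and most unlike for DUSP1 and SPRY4 (r = -0.826), DUSP1 and SPRED2 (r = -0.815) and DUSP10 and SPRY2 (r = -0.782). The vehicle, 1 of these 16 groups, had the lowest mean of DUSP1 (29.6 CPM) and the highest of SPRY4 (38.52 CPM) and SPRED2 (40.75 CPM). How far the negative r of DUSP1 with SPRY4 and SPRED2 rest on that 1 group was not tested. With the 3 Astragali Radix groups included, DUSP5 and SPRY2 had r = 0.993 over 19 groups. Astragali Radix high had means of 383.3 and 132.8 CPM for these genes, and all other groups at most 23.23 and 30.15 CPM. An r without Astragali Radix high was not computed over the other groups.

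Among 11197 genes of at least 5 CPM, the gene whose group means over the 16 groups were most like those of each member was OSGEP for DUSP1 (r = 0.92), HTRA2 for DUSP4 (0.932), PIK3CD for DUSP5 (0.933), SQOR for DUSP6 (0.959) and MFAP4 for DUSP10 (0.912). It was TSC22D1 for SPRY2 (r = 0.926), CEP89 for SPRY4 (0.926), RAB23 for SPRED1 (0.809), BAG3 for SPRED2 (0.968) and ALG5 for ETV5 (0.952). The mean profile of the members was most like ZBTB22 (r = 0.931), JUN (0.927) and HUS1 (0.926). These are descriptions of 16 points, the vehicle among them, that were ranked over many genes.

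The single libraries of Rehmanniae Radix Preparata, scaled together with all 60 libraries, were compared with the vehicle without a test. DUSP1 measured 44.8, 34.8 and 38.1 CPM at the high, medium and low dose, above the vehicle maximum of 31.4 CPM. SPRY4 measured 30.5, 28.0 and 28.1 CPM, below the vehicle minimum of 37.95 CPM, and SPRED2 34.4, 31.5 and 31.8 CPM, below 38.2 CPM. DUSP10 measured 9.19 CPM at the high dose and 12.7 and 11.6 CPM at the lower doses, and SPRY2 28.9, 22.7 and 22.6 CPM. DUSP10 was lowest and SPRY2 highest at the high dose among these 3 libraries.

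On GRCh38 the genes lie on separate chromosomes, apart from DUSP1 (ENSG00000120129, chr5:172768090-172771195) and SPRY4 (chr5:142310427-142326455), both on chromosome 5. DUSP5 lies at chr10:110497838-110511544, DUSP6 at chr12:89347232-89353271, DUSP10 at chr1:221701424-221742176 and SPRY2 at chr13:80335976-80340951. SPRED1 lies at chr15:38252326-38357249, SPRED2 at chr2:65310851-65432637, ETV5 at chr3:186046308-186110318 and DUSP4 on chromosome 8.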

How the data were processed

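The deposited table holds expected counts that the authors estimated with RSEM, 1 column per library. Per the labels' protocols, libraries were made with the MGIEasy RNA Directional kit and sequenced as 100 bp paired ends on the MGIseq system. The submitters' processing notes name FastQC 0.11.9, Trim Galore 0.6.5, STAR 2.7.3a, RSEM 1.3.3 and hg38; annotation release and strand setting are not given in the sources used here. Of 279 columns, the 219 that match no sample here were not used. Of the values 90.8% were whole (tolerance 1e-9), and the rest were rounded.

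The 57 replicated libraries entered 1 edgeR 4.0.16 fit (R 4.3.3; quasi-likelihood F test, TMM, filterByExpr, 1 mean per group), with Benjamini-Hochberg adjustment over 17676 genes and calls at adjusted p below 0.05. Standard errors (SE) equal the size of the log2 change over the root of its F value. The dose trend is the high minus the low dose, divided by 2, so the mean of the medium dose does not enter it. The test was also run on simulated counts with an equal spread for all genes and no libraries that stood apart. The real data differ in both, so that run is no check on the moves of calls given below. CPM uses TMM totals, and log2 CPM of groups a prior count of 2. Alternatives were RLE scaling, no filter, DESeq2 1.42.0, fits of the compared groups alone, splines of transcript length and GC content, a replicate block, and leaving out libraries.

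The members and gene lists were chosen with earlier results of these data known. Named were all members, of each list up to 3 called genes with the smallest adjusted p at the high dose of Astragali Radix and up to 2 in the Sibjeondaebo-tang trend, and the genes most alike. Where the genes so named of a list all rose in either of these comparisons, those of the list that fell there were named too.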

Additional observations from a re-analysis of the deposited data

Results flagged for a closer look

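The dose trends of 3 members differed among the 5 extracts given at 20, 100 and 500 µg/mL, by a joint test of the differences between trends (edgeR, adjusted over all genes). That test called 5.84% of all genes (1032 of 17676) in the fit of all 57 libraries. Without Astragali Radix low replicates 1 and 2 it called 8 members. DUSP5 had an adjusted p of 5.31e-06, with trends per 5-fold step of -0.09 in Sagunja-tang, 0.10 in Samul-tang, 0.15 in Cinnamomi Cortex and in Palmul-tang, and 0.30 in Sibjeondaebo-tang. DUSP6 had an adjusted p of 0.000406, with trends called in Samul-tang (0.19), Palmul-tang (0.22) and Sibjeondaebo-tang (0.29) and not in Cinnamomi Cortex (0.06) or Sagunja-tang (0.08). DUSP10 had an adjusted p of 0.00744, with trends of 0.07 in Cinnamomi Cortex, 0.01 in Sagunja-tang, -0.14 in Palmul-tang, -0.17 in Sibjeondaebo-tang and -0.23 in Samul-tang. With each of the 30 libraries of these doses left out in turn, the adjusted p was at most 5.82e-05 for DUSP5, 0.0017 for DUSP6 and 0.0281 for DUSP10.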

How the results depend on the processing

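No alternative reversed the direction of a called change of a member. The replicate block gave 8 called members for Astragali Radix high against the vehicle, the same as without it, and of the member calls it changed the 1 of DUSP4 named above. The correlation of deviations between same-numbered libraries was weak and in part negative. Its median r was 0.00913 and its lowest -0.142, against a median of -0.00503 for other numbers. For this reason numbers did not enter the reported fit. However, 38 of 57 libraries lay closest to their own number, a hint from the data and not from the design. These values and the replicate block pool numbers over all label codes, and pairing within a code was not tested. RLE scaling moved no count by over 1.5 times. In what follows the number of called members comes first for the reported fit. Without the filter on low counts it went from 5 to 3 in Sagunja-tang high, 6 to 3 in Samul-tang high, 5 to 3 in Samul-tang low, 1 to 0 in the Cinnamomi Cortex trend, 3 to 1 in the Palmul-tang trend, 1 to 0 in Samul-tang against Sagunja-tang and 3 to 1 in Palmul-tang against Sagunja-tang. Without both Astragali Radix low libraries it went from 5 to 8 in Astragali Radix medium, 6 to 3 in Astragali Radix low, 3 to 5 in Palmul-tang low, 0 to 3, 2 to 4 and 3 to 5 in the trends of Sagunja-tang, Samul-tang and Palmul-tang, 1 to 6 in Samul-tang against Sagunja-tang, 0 to 1 in Palmul-tang against Samul-tang, 0 to 2 in Sibjeondaebo-tang against Palmul-tang and 3 to 8 in the difference of trends. With only the compared groups in the fit, Astragali Radix low went from 6 to 0, Palmul-tang low from 3 to 5, the Sagunja-tang and Palmul-tang trends from 0 to 3 and 3 to 6, Samul-tang against Sagunja-tang from 1 to 4, Palmul-tang against Samul-tang from 0 to 1 and the difference of trends from 3 to 8. Length and GC splines gave 0 for Samul-tang against Sagunja-tang, 2 for Sibjeondaebo-tang against Palmul-tang and 5 for the difference of trends. DESeq2 gave 1 in the Sagunja-tang trend and 2 in Samul-tang against Sagunja-tang. Over all genes, calls moved by over 1.5 times in 27 of 30 comparisons without the 2 libraries, for example from 7201 to 2922 in Astragali Radix low against the vehicle and from 3763 to 7109 in the Sibjeondaebo-tang trend. The cause of these moves was not tested.

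Leaving out 1 library at a time gave 3 to 4 in Sagunja-tang high, 3 to 6 in Samul-tang high, 2 in Palmul-tang medium, 2 to 4 in Samul-tang low, 3 to 4 in Sibjeondaebo-tang low, 0 to 1 in the Cinnamomi Cortex trend, 1 to 3 in the Palmul-tang trend, 0 to 2 in Samul-tang against Sagunja-tang and 1 to 3 in Palmul-tang against Sagunja-tang. The lowest values came without Vehicle replicate 1 or Sagunja-tang high replicate 2 or 3 (Sagunja-tang high, 3), Vehicle replicate 3 or Samul-tang high replicate 2 (Samul-tang high, 3), any of the 6 libraries (Palmul-tang medium, 2), Vehicle replicate 1 or Samul-tang low replicate 2 (Samul-tang low, 2) and Vehicle replicate 1 or Sibjeondaebo-tang low replicate 1 or 3 (Sibjeondaebo-tang low, 3). Calls of all genes split otherwise with the length and GC splines: the share that were higher went from 49.7% to 66.1% in the Sibjeondaebo-tang trend and from 32.1% to 70.3% in Sibjeondaebo-tang against Palmul-tang. Of the pathway genes named with a change, DUSP2 had the lowest level (0.183 to 0.668 CPM).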
